A study of Mus musculus with 4 samples.

Results

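Of the 27597 genes with a value on the arrays, 8 were examined here for their part in the structure of neurons and axons: Nefl, Nefm, Prph, Gap43, Ncam1, L1cam, Uchl1 and Tubb3. They were taken by gene name from the array files, with every probe of each name, 17 probes in all. Prph stands in the files under the older name Prph1 and was matched to its current symbol by accession. Male C57BL/6 mice, 35 days old, supplied the RNA, which was read on 1 array each for the maxilla and the mandible (jaw bones) and for the ilium and the femur (trunk and limb bones). The study asked how gene expression in jaw bones differs from that in trunk and limb bones. The labels give no engineered allele and no treatment for these mice, and no number of animals behind an array. The error of a comparison combines how far the 2 bones within a class lie apart with a spread estimated over all genes tested. Variation from animal to animal is not part of any p-value here.

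A bone carries nerve in its periosteum, canals and marrow, and a jaw bone also holds the nerves that supply the teeth. The cell bodies of most of these sensory fibres lie outside the bone, in ganglia, while sheath cells accompany the axons within it. The calibre of an axon depends on neurofilaments, which are intermediate filaments built from Nefl, Nefm and, in peripheral neurons, peripherin (Prph), and its transport runs on microtubules that contain the neuronal beta-tubulin Tubb3. Gap43 is a membrane protein of growing axon tips, Ncam1 and L1cam are adhesion molecules of the immunoglobulin family, and Uchl1 is an abundant neuronal deubiquitinase. Several of these genes have known expression outside neurons: Ncam1 occurs in muscle and mesenchymal cells, and Uchl1 in neuroendocrine cells.

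Promoter sequences are shown for the members whose jaw signal took a different form: Tubb3, alike in both jaw bones, and Prph and Uchl1, brighter in the maxilla. RefSeq promoters (build GRCm38.p6) were matched for 4 of the 8 genes, these 3 and L1cam. The 250 bases before each start site are printed 5′ to 3′ in lower case, and the capitals mark TATAA or GGGCGG on either strand.
Tubb3, chr8:123411303-123411552, plus strand: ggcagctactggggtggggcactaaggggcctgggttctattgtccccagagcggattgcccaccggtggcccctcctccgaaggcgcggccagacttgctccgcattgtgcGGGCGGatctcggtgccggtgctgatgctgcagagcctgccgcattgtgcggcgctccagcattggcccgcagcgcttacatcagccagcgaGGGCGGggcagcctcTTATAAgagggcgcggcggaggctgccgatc
Prph, chr15:99054924-99055173, plus strand: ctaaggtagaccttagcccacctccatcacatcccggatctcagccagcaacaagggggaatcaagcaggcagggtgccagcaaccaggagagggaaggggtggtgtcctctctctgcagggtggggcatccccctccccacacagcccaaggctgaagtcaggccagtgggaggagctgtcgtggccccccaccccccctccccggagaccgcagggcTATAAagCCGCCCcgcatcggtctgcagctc
Uchl1, chr5:66675871-66676120, plus strand: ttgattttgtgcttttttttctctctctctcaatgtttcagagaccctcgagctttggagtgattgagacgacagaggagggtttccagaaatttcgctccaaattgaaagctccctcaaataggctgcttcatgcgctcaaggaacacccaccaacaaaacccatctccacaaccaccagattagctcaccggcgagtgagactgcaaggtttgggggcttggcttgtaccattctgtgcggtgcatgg
In the searched window of 300 bases, which runs on for 50 bases past the start, Tubb3 held TATAA in both directions at 1 overlapping place and GGGCGG 2 times. Its sense TATAA began at position -30 from the start. Prph held TATAA 1 time, at position -31, and GGGCGG 1 time on the other strand. Neither motif was found in the Uchl1 window. Across 32851 promoters of the same length, 24.87% held TATAA and 35.66% held GGGCGG on either strand. The base composition also differed, with 67.3% G and C for Tubb3, 64.7% for Prph and 50.7% for Uchl1, beside a median of 52.7% over all promoters. These matches describe the letters in the windows and were not set against any binding data.

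Levels are log2 spot signals after subtraction of their array's 75th percentile, so a value of 0 is that percentile itself. A probe was called well above background by the scanner's own flag, and the dimmest probe so called lay between -6.53 and -6.02 on the 4 arrays. Of 43379 spots, 72.8% to 75.5% were well above background on each array and 0 were saturated. All 4 arrays lay on 1 slide, so bone and position on the slide cannot be told apart. As a check of the tissue, 8 bone cell genes picked after the data were seen, among them Bglap (osteocalcin) and the osteoblast factor Sp7, were well above background on all 4 arrays, at levels between 0.19 and 8.06.

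The 8 genes fell into more than one pattern across the bones. Tubb3 and Ncam1 were high in both jaw bones, Nefl and Gap43 were measured in both jaw bones and not above background elsewhere, and Nefm was detected only in the mandible. Prph and Uchl1 were brightest in the maxilla, with a mandible level near that of the ilium, and L1cam did not follow the bone classes. The filter for testing, which asked for 2 arrays well above background, passed 7 of the 8 genes and not Nefm. Nefl and Gap43 passed it only through the maxilla and the mandible, the bones where they were bright, so their calls describe them and do not support a difference over the set. By limma, with Benjamini-Hochberg adjustment over 20618 genes and a threshold of 0.05, 4 of the 8 were higher in the jaw bones (Nefl, Gap43, Ncam1 and Tubb3) and 0 were lower. Over all genes tested, 4.51% were called higher and 7.25% lower. With the filter set to all 4 arrays, 2 members were called (Ncam1, adjusted p = 0.0347, and Tubb3, adjusted p = 0.0267). With no filter 2 were called as well, Gap43 (adjusted p = 0.0489) and Tubb3 (adjusted p = 0.0489), while Nefl (adjusted p = 0.0621) and Ncam1 (adjusted p = 0.0616) did not pass. The median difference over all 8 members was 2.63 by measured values and 2.21 with Nefl, Nefm and Gap43 at lower bounds for the bones where they were not above background, beside 0.08 over all 27597 genes. A rule of size without a test asks that the classes be separated by at least 1 on the log2 scale. Of the 7 tested members it took 4 (the same 4) and 0 in the other direction. Of the 20618 tested genes it took 9.34% upwards and 9.82% downwards. Nefm, which was not tested, met the rule as well, making 5 of the 8. Its maxilla, ilium and femur values were not above background, so no separation of the classes was measured for it.

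**Figure D1:**
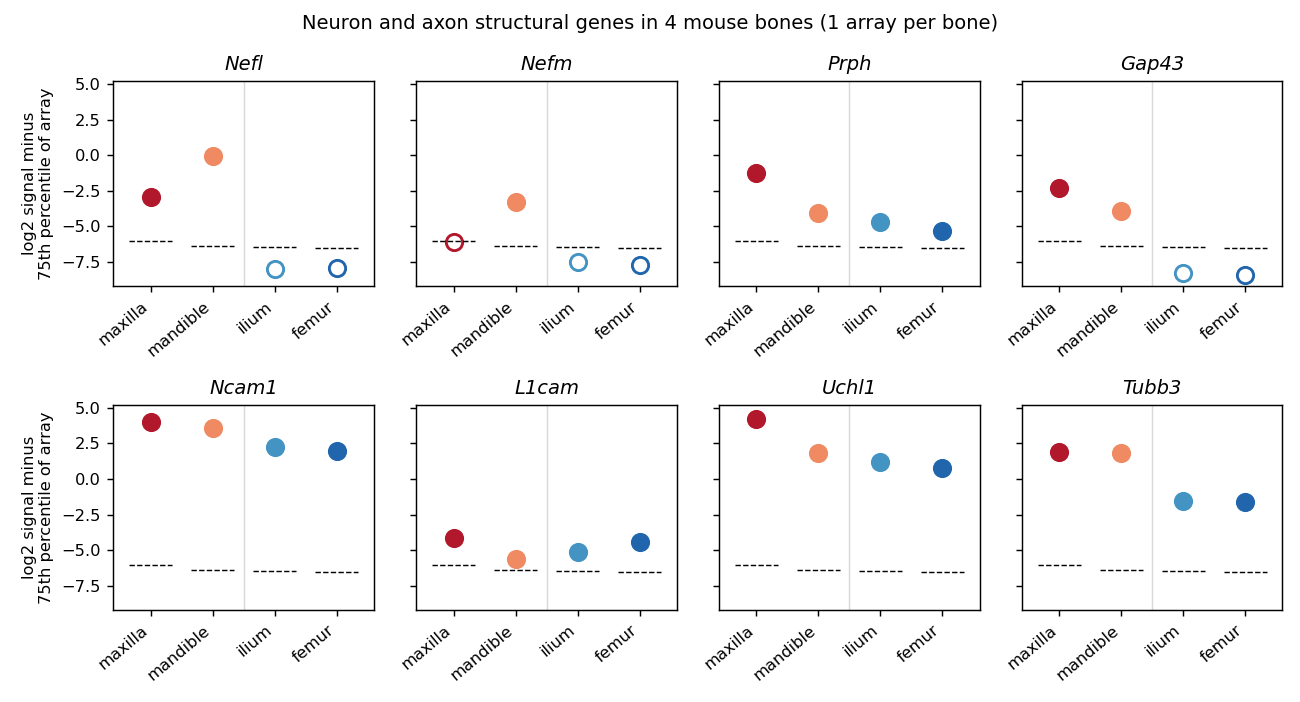
Log2 signal minus its array's 75th percentile (vertical axis) for each of the 8 genes in the maxilla, mandible, ilium and femur (1 point per array). Filled points are well above background, open points are not, and dashed lines mark the dimmest probe well above background on that array. Nefl and Gap43 are open in the ilium and femur, and Nefm is filled only in the mandible.

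Nefl encodes the neurofilament light chain, the core subunit of the axonal filament. Its brighter probe (chromosome 14, 67040911 to 67040971, plus strand, mm8) gave -2.95 in the maxilla and -0.03 in the mandible, against -7.99 in the ilium and -7.90 in the femur. In scanner units these were signals of 105 and 1117 in the jaw bones, against 4.48 and 5.05 in the ilium and femur, where the probe was not well above background. The classes did not overlap, and the jaw bones were at least 32.1-fold higher by the lower bound (fitted log2 difference 6.46 ± 1.08, SE, 2 bones per class; adjusted p = 0.0464 by limma, with a gene filter that Nefl passed through the jaw arrays alone, and 0.0621 with no filter). The second probe, placed farther along the chromosome at 67042139 to 67042198, was -4.25 in the maxilla and -2.69 in the mandible, against -8.27 in the ilium and -8.41 in the femur. It showed the same order of the jaw bones with a smaller gap between the classes, at least 8.15-fold (adjusted p = 0.0316 by limma over all probes). This probe, too, passed the filter through the jaw arrays alone, so its call is descriptive. Taken bone by bone, the mandible was at least 86.3-fold above the ilium and at least 90.3-fold above the femur, and the maxilla at least 11.4-fold and 12.0-fold above the same bones. Within the jaw the maxilla minus the mandible was -2.92 by the brighter probe, so the relative level in the mandible was 7.55 times as high. By the second probe that difference was smaller, at -1.55.

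Nefm, which encodes the medium chain that co-assembles with Nefl, lies beside it: the probes of both genes were 32.5 kb apart on chromosome 14, on opposite strands (Nefm probe at 67073466 to 67073525, minus strand). The probe was printed in 10 spots per array. In the mandible all 10 spots were well above background with signals from 113 to 123, while 0 spots were in the maxilla, the ilium or the femur. Spot signals ran from 9.01 to 15.7 in the maxilla, against 4.55 to 13.7 in the ilium, where 1 outlying spot of 23.6 was left out, and 3.44 to 10.6 in the femur. The mandible therefore did not overlap any other bone, and its 10 spots had a log2 SD of 0.043, a technical error within 1 array. Averaged over its spots, Nefm was -6.11 in the maxilla and -3.29 in the mandible, against -7.47 in the ilium and -7.70 in the femur. Bounds set at the dimmest probe well above background put the mandible at least 6.64-fold above the maxilla. By the same bounds it was at least 9.03-fold above the ilium and at least 9.45-fold above the femur, without a test. Like Nefl, Nefm was brighter in the mandible than in the maxilla.

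Peripherin (Prph), the intermediate filament typical of peripheral and autonomic neurons, had the opposite order within the jaw. Its probe (chromosome 15, 98884900 to 98884959, plus strand) gave -1.25 in the maxilla and -4.05 in the mandible, against -4.69 in the ilium and -5.34 in the femur. The maxilla stood apart, and the other 3 bones lay closer to each other than to it. The class difference was 2.36 ± 1.06 (95% interval -0.66 to 5.39, adjusted p = 0.214) and did not pass. The relative level in the maxilla was 6.92 times that in the mandible. The class difference depended on which jaw array was kept, at 0.97 without the maxilla (adjusted p = 0.129) and 3.76 without the mandible (adjusted p = 0.00993). Each of these fits has 1 jaw array, which is assumed to vary like the ilium and femur.

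Tubb3, the beta-tubulin of neuronal microtubules (chromosome 8, 126307891 to 126307950, plus strand), was the member whose classes were most evenly separated. It had 1.88 in the maxilla and 1.83 in the mandible, against -1.53 in the ilium and -1.62 in the femur. Signals were 2988 and 4060 in the jaw bones, against 394 and 392 in the ilium and femur. The jaw bones differed by 0.05 from each other and the trunk and limb bones by 0.09, far less than the gap of 3.36 between the classes. The jaw bones were 10.8-fold higher (3.44 ± 0.19, 95% interval 2.89 to 3.98, adjusted p = 0.0325), a value that it shared with other genes and below which no gene fell. The probe had 10 spots per array, with SDs of 0.032 in the maxilla and 0.035 in the mandible, against 0.13 in the ilium and 0.096 in the femur, where 1 outlying spot of 427.5 was left out.

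Gap43, a phosphoprotein of growth cones (chromosome 16, 42211647 to 42259812, minus strand), gave -2.33 in the maxilla and -3.94 in the mandible, against -8.24 in the ilium and -8.38 in the femur. The probe was not well above background in either trunk or limb bone, where the signals were 3.77 and 3.63. In the jaw the maxilla signal was 161 and the mandible signal 74.4, and relative to each array's 75th percentile the maxilla was 3.06-fold above the mandible. The classes did not overlap, and the jaw bones were at least 10.3-fold higher (fitted difference 5.18 ± 0.62, adjusted p = 0.0336 with a filter that Gap43, too, passed through the jaw arrays alone, and 0.0489 with no filter). The maxilla was at least 17.6-fold above the ilium and 18.4-fold above the femur, and the mandible at least 5.75-fold and 6.01-fold above the same bones.

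Ncam1, the neural cell adhesion molecule, was bright in every bone. Its brightest probe (chromosome 9, 49254445 to 49254504, minus strand) gave 3.97 in the maxilla and 3.57 in the mandible, against 2.24 in the ilium and 1.94 in the femur. The jaw bones lay 1.33 above the trunk and limb bones at the nearest point, and were 3.20-fold higher (1.68 ± 0.26, 95% interval 0.94 to 2.42, adjusted p = 0.0419). Ncam1 has long and short isoforms that differ in their last exons, and its 8 probes did not give 1 value. Over all probes tested, 4.91% were called higher, and 3 of the 8 Ncam1 probes were. The called probes were the brightest one, its neighbour at 49257349 to 49257408 (1.61 ± 0.27, adjusted p = 0.0433) and the one farthest away at 49394138 to 49394197 (1.70 ± 0.20, adjusted p = 0.0312). The probe at 49259540 to 49259599 gave 0.20 ± 0.26 (adjusted p = 0.623), with -2.63 in the maxilla and -3.03 in the mandible, against -3.17 in the ilium and -2.89 in the femur. There the classes overlapped. The 8 probes read 1 gene on the same 4 arrays, so they are not independent of each other. The 3 probes between 49269730 and 49319589 gave 0.74, 0.73 and 1.10, none past the threshold, and a probe without a position gave 1.96 ± 0.37 (adjusted p = 0.0510). The sources used here do not give which transcripts each probe reads.

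**Figure D2:**
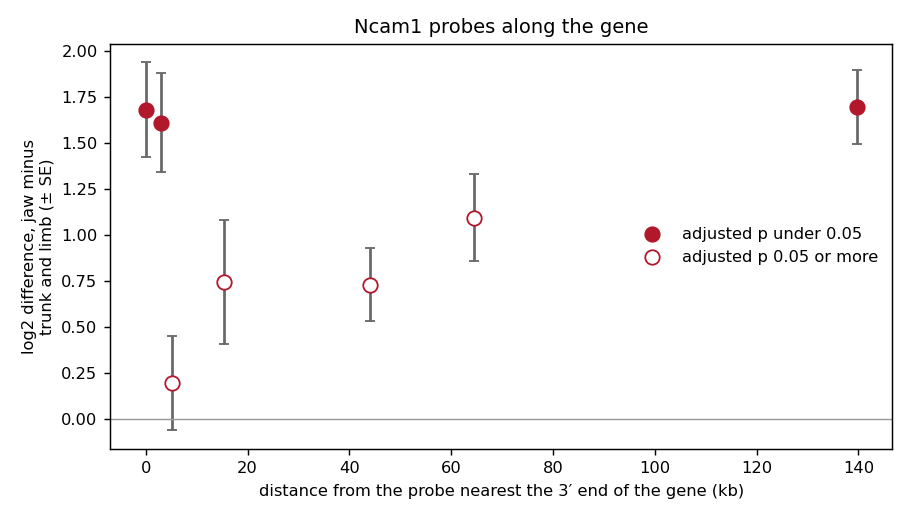
Log2 difference between jaw and trunk and limb bones (vertical axis, bars are ± SE from limma, 2 bones per class) for the 7 Ncam1 probes with a position, by distance in kb from the probe nearest the 3′ end of the gene (horizontal axis). Filled points have an adjusted p under 0.05. Differences run between 0.20 and 1.70, and the filled points lie at both ends.

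L1cam, an axonal adhesion molecule of the same family (chromosome X, 70107759 to 70107818, minus strand), was dim and well above background in all 4 bones. It had -4.16 in the maxilla and -5.62 in the mandible, against -5.12 in the ilium and -4.44 in the femur. The mandible was the lowest and the maxilla the highest bone, so the classes overlapped completely. The class difference was -0.10 ± 0.62 (95% interval -1.86 to 1.66, adjusted p = 0.920), an interval wide enough to hold a change of 2-fold in either direction.

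Uchl1, the neuronal ubiquitin hydrolase, was, like Prph, highest in the maxilla. Its brighter probe (chromosome 5, 66966304 to 66966364, plus strand) gave 4.21 in the maxilla and 1.82 in the mandible, against 1.19 in the ilium and 0.74 in the femur. The relative level in the maxilla was 5.25 times that in the mandible, and the mandible lay nearer to the ilium than to the maxilla. The second probe, at 66961782 to 66962873, showed the same order with 1.24 in the maxilla and -1.39 in the mandible, against -1.86 in the ilium and -2.11 in the femur. Neither probe passed: the brighter one differed between the classes by 2.05 ± 0.91 (95% interval -0.54 to 4.63, adjusted p = 0.209). As for Prph, the difference was 0.85 without the maxilla (adjusted p = 0.101) and 3.24 without the mandible (adjusted p = 0.00873), where the spread again comes from the ilium and femur alone.

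The jaw calls were not kept without 1 of the trunk and limb arrays, though the differences changed little. Without the ilium they were 6.41 for Nefl, 5.25 for Gap43, 1.83 for Ncam1 and 3.48 for Tubb3. Without the femur they were 6.50, 5.11, 1.53 and 3.39 in the same order. In these fits the spread within a class comes from the maxilla and mandible alone. Without the ilium or without the femur limma called 0 members and 0 of all genes, with 3550 and 2628 genes at an unadjusted p under 0.05. Normexp background correction started from the mean spot signals and median background signals, and added an offset of 50 to every spot. With it, Nefl gave 3.09 (adjusted p = 0.0978) and Gap43 gave 1.55 (adjusted p = 0.0953), so 2 of the 4 calls were left.

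Within the jaw, 4 of the 8 members differed by 4-fold or more between the single arrays of the maxilla and the mandible, 2 in each direction. Prph and Uchl1 were brighter in the maxilla, and Nefl (by its brighter probe alone) and Nefm in the mandible. Among 21086 genes that could be compared, 8.94% were brighter in the maxilla and 2.5% in the mandible by that measure. Between the ilium and the femur 0 members reached 4-fold, where 0.684% of 20895 genes were brighter in the ilium and 0.302% in the femur (0.986% in all), and the largest gap was that of L1cam at -0.68. Of the 8 members, 6 had their highest value in the maxilla and 2 in the mandible. Of all genes well above background in at least 1 bone, 29.3% had theirs in the maxilla and 26.1% in the mandible, against 10.2% in the ilium and 34.4% in the femur. There was no replicate check of any difference between 2 bones.

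**Figure D3:**
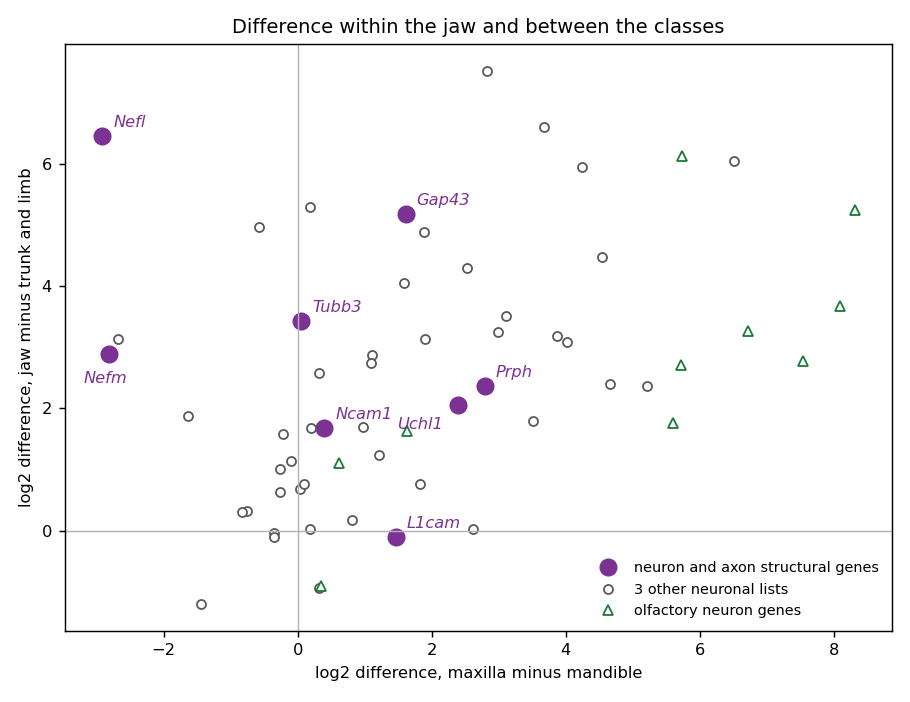
Log2 difference between jaw and trunk and limb bones (vertical axis) against the difference between maxilla and mandible (horizontal axis), 1 point per gene, for the 8 members, 3 other neuronal lists and olfactory neuron genes that were well above background on at least 1 array. Nefl and Nefm lie to the left with -2.92 and -2.82, Tubb3 near 0 with 0.05, and Prph and Uchl1 to the right with 2.79 and 2.39. Points of genes below background in a bone show measured values, not bounds.

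Genes of related function were read from lists chosen with earlier results of these data in view. Of 14 other genes of the neuronal cytoskeleton, 13 were tested, 2 were called higher and 0 lower, with a median difference of 3.13. Map2, a dendritic microtubule protein, had 0.33 in the maxilla and -1.25 in the mandible, against -4.28 in the ilium and -4.72 in the femur (4.04 ± 0.63, adjusted p = 0.0419). Map1b, a microtubule protein of growing axons that was singled out after its values were seen because it was the other call, differed by 2.87 ± 0.49 (adjusted p = 0.0475). The largest difference was that of the stathmin Stmn3 with 6.60 ± 1.36, which did not pass (adjusted p = 0.0618). Of the 14, 11 were highest in the maxilla and 6 were 4-fold or more brighter there than in the mandible, while 0 were brighter in the mandible by that measure. Nefh, the neurofilament heavy chain, was named after its values were seen as the partner of Nefl and Nefm. It had -4.27 in the maxilla and -2.82 in the mandible, against -2.47 in the ilium and -2.22 in the femur. Both jaw bones lay below both trunk and limb bones, but the class difference of -1.20 ± 0.57 did not pass (adjusted p = 0.231), and a second probe gave -0.63.

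Among genes of the synapse and of electrical excitability 12 of 16 were tested and 2 were called higher, with a median of 1.42. The sodium channel Scn8a, found at nodes along axons, had -0.27 in the maxilla and -2.15 in the mandible, against -5.88 in the ilium and -6.31 in the femur (adjusted p = 0.0399), and the potassium channel Kcna1 differed by 2.59 ± 0.23 (adjusted p = 0.0325). Snap25 (3.18, adjusted p = 0.213) and Syp (3.08, adjusted p = 0.234), proteins of the presynaptic ending, did not pass. Their levels in the maxilla exceeded those in the mandible by 3.87 and 4.01. Another Snap25 probe gave a larger class difference of 6.49. Of genes that mark kinds of neuron, 12 of 16 were tested and 2 were called higher, with a median of 2.31. The RNA-binding protein gene Elavl2 was at least 47.5-fold higher in the jaw bones (adjusted p = 0.0367). Tac1, the precursor of the sensory peptide substance P and named because it was the other call, was at least 31.1-fold higher (adjusted p = 0.0325). Elavl2 and Tac1 were well above background in the jaw bones alone and passed the filter through those arrays. The related Elavl3 and Elavl4 (at least 28.5-fold and 27.2-fold by their measured jaw means) and Isl1 (5.29) did not pass, with adjusted p of 0.176, 0.0899 and 0.0647. Rbfox3, a marker of mature neuronal nuclei, and the sensory neuron factor Pou4f1 gave -0.10 and 0.02 (adjusted p = 0.793 and 0.954). Both were also named after their values were seen, and both were well above background in all 4 bones.

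The closest relatives of the members by family did not move as a block. Of 10 tested adhesion relatives 1 was called higher, Cntnap2 of the axonal juxtaparanode (4.65 ± 0.76, adjusted p = 0.0447), with a median of 0.70. Of the 6 measured tubulins of the beta family other than Tubb3, 0 were called in either direction, with a median of -0.45 and values from -0.90 to 1.52. Of 7 other intermediate filament genes 0 were called higher and 1 lower. The lower call was the glial filament Gfap (-3.49, adjusted p = 0.0325, with another of its probes at -1.07). Nes (nestin) had 2.28 (adjusted p = 0.154). The UCH family of Uchl1 had 0 calls among 4 genes with a median of -0.33. Basp1, a membrane substrate of growth cones like Gap43, was higher (1.50 ± 0.21, adjusted p = 0.0367), while Marcks and Marcksl1 gave 0.75 and 0.70 without passing.

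**Figure D4:**
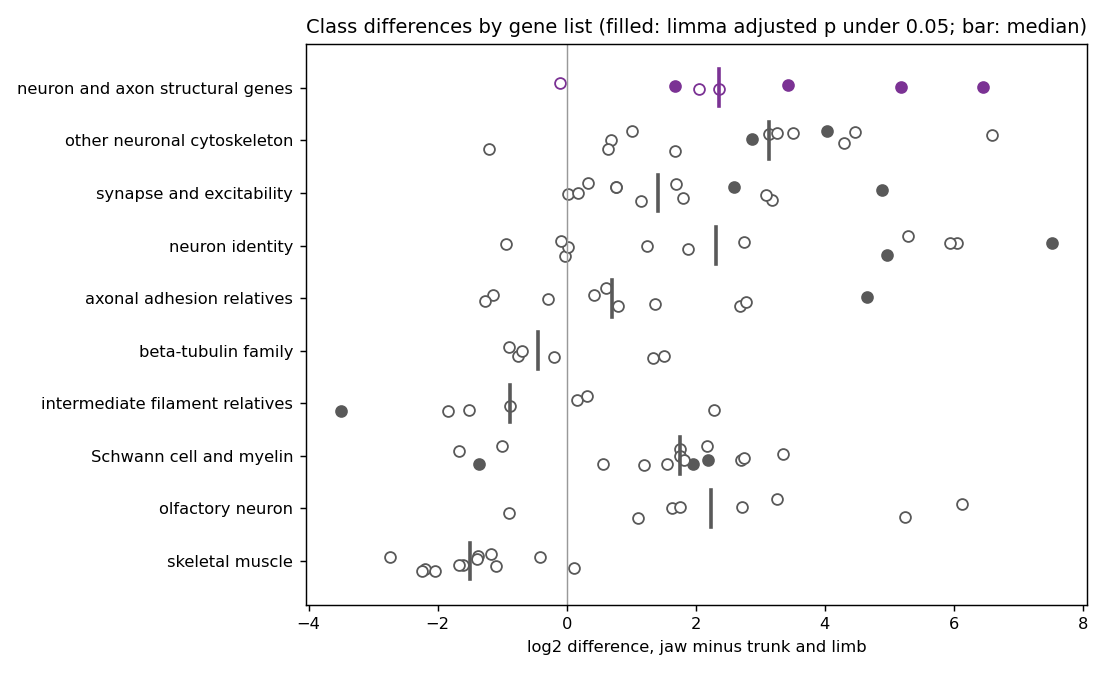
Log2 difference between jaw and trunk and limb bones (horizontal axis) for the tested genes of the 8 members' list and 9 further lists (rows), 1 point per gene. Filled points have a limma adjusted p under 0.05 and bars are medians. The members' median is 2.36, that of the other cytoskeletal genes 3.13 and that of the beta-tubulin family -0.45.

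Markers of other cell types differed between the bones as well. In RNA from whole bone, fewer cells of a type and less RNA per cell cannot be told apart. The olfactory neuron and neuroendocrine lists had 0 calls between the classes among 8 and 7 tested genes. Of 10 olfactory neuron genes with a value, 10 were well above background in the maxilla and 6 in the mandible, against 6 in the ilium and 7 in the femur. Their summed level, as multiples of the array's 75th percentile, was 18.5 in the maxilla and 0.66 in the mandible, against 0.80 in the ilium and 0.59 in the femur. Gng13 of that list differed by 8.31 between the maxilla and the mandible, brighter in the maxilla, and Rtp2 had 0.09 in the maxilla and was not well above background in the other 3 bones. The 7 neuroendocrine genes had a summed level of 57.0 in the maxilla and 0.77 in the mandible, against 0.21 in the ilium and 0.21 in the femur, led by the granule protein Chga with 5.55 in the maxilla and -2.88 in the mandible, against -6.09 in the ilium and -5.15 in the femur. These lists were brightest in the bone where Prph and Uchl1 were brightest, and their part in those values was not tested. Both lists were dim in the mandible, where Nefl and Nefm were brightest.

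Schwann cell and myelin genes had 2 calls higher and 1 lower among 15 tested, with a median of 1.76. S100b (2.20, adjusted p = 0.0325) was higher in the jaw bones, while Cnp, named after its values were seen, was lower (-1.36, adjusted p = 0.0402). The summed level of the list was 40.4 in the maxilla and 43.2 in the mandible, against 24.3 in the ilium and 23.8 in the femur. Most of the difference lay in S100b and the myelin protein gene Pmp22, singled out after their values were seen. Without these 2 genes the sum was 16.7 in the maxilla and 9.95 in the mandible, against 15.6 in the ilium and 17.9 in the femur, so the rest of the list did not separate the classes. The part of these cells in the differences of the members was not tested. Sox10, the glial and neural crest factor, had 1.35 in the maxilla and -2.45 in the mandible, against -3.41 in the ilium and -3.18 in the femur. Skeletal muscle genes, relevant to Ncam1, had 0 calls among 12 and a median of -1.50, and the 8 genes of the muscle synapse a median of -0.63 with 0 calls. Blood cell genes of the marrow had lower calls for 7 of 7, with a median of -3.41. Tooth matrix genes had 4 calls higher among 6, with a median of 10.14 (9.01 at the bounds). Natural killer cell genes, listed because Ncam1 also marks such cells in humans, had 3 lower calls among 4, with a median of -2.41. In both lists, some called genes passed the filter only through the class of bones where they were bright, so those calls are descriptive. Of 6 melanocyte genes, 4 were well above background in at least 1 bone. There were 0 calls among the 3 tested, with a median of 0.19, but 1 of these met the size rule upwards. The summed level of the list was 0.44 in the maxilla and 0.93 in the mandible, against 0.26 in the ilium and 0.24 in the femur. Tyr and Tyrp1 (named after their values were seen) were not well above background in any bone.

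The genes whose 4 values ran most like those of a member were sought among 18404 genes well above background on all 4 arrays, by Euclidean distance after each gene's mean was subtracted. Nefl lay nearest to Foxf2 (distance 0.30 log2 units), followed by Lamb3 and Dio3, all brightest in the mandible. Nefm lay nearest to Tmem255a (0.30), Fbn2 and Piezo2. For Prph the nearest were Myrip (0.08), Adh1 and Hid1, and for Uchl1 Tspan12 (0.17), a transcript without a symbol, and Gnao1. Gap43 lay nearest to Scn8a (0.40), Fam241b (0.42) and Slc24a2 (0.45). Tubb3 lay nearest to Fam83h (0.15), Steap2 and Rhbg, and Ncam1 to an unnamed transcript (0.04), Dzip1l and Lima1. L1cam lay nearest to Rab27b (0.11), Tas2r140 and Dnaaf1. With 4 values per gene, such likeness is a description of these arrays only. For Nefl, Nefm and Gap43 the distances also use values not above background, in the ilium and femur and for Nefm in the maxilla, so the order of their nearest genes is not exact.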

How the data were processed

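Total RNA of 4 mouse bones was labelled in 1 colour and hybridised to Agilent whole mouse genome arrays. The authors deposited 1 scanner file per array, whose spot intensity was read by Agilent Feature Extraction (version 9.5.3.1 in the submitters' processing notes) and background-subtracted and detrended within the array, per the file headers. The other deposited columns used are the program's spot flags (well above background, outlier, saturated), per the file headers. The deposited series table holds log2 values. Set against the scanner values, about 99.9% of 41174 probes in the maxilla, mandible and femur columns lay within 0.01 of the log2 ratio to the ilium array minus a constant (-0.0955 for the maxilla, 0.122 for the mandible and 0.0960 for the femur), with column medians of -0.217, -0.133, 0 and 0.0232 for maxilla, mandible, ilium and femur. The sources used here do not give how the constants were set. The file headers place the probes on build mm8.

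Here, log2 of the processed signal minus the array's 75th percentile was used with no pseudocount. Outlier spots were left out and the remaining spots of a probe averaged, and the probe with the highest mean stood for a gene. Names came from a RefSeq table of GRCm38.p6: of 41174 probes, 24375 were named by accession, 6301 by current symbol and 2426 by older symbol, and 8072 kept the file's name. Classes were compared with limma 3.58.1 in R 4.3.3 (lmFit, eBayes), with the bone as the unit, 2 residual degrees of freedom and 1.757 prior degrees of freedom. The fit was run on simulated data in which a gene had the same error on all 4 arrays and every probe was above background. The real arrays differ from that. Over the tested genes, the median absolute difference was 0.45 between maxilla and mandible and 0.19 between ilium and femur. The simulation therefore does not check the calls of genes at background in a class. Where both arrays of a class were not well above background, the fold is a bound, "at least N-fold", set from the higher of its own signal and the dimmest signal well above background. That dimmest signal is not a strict detection limit. On the maxilla array, for example, a probe at -5.56 was not flagged well above background while one at -6.02 was. The number of arrays limits the precision. Members and lists were chosen with earlier results of these data known. The text names, in each list, up to 4 genes with the largest class difference, and any other gene is said to be chosen after its values were seen. Slide and scan were shared by all arrays. The grafted tissue of the study was not analysed here. The values of 1 listed gene are not reported here.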

Additional observations from a re-analysis of the deposited data

How the results depend on the processing

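No paired analysis was possible because the labels carry no replicate numbers and each bone has 1 array. Of the 4 members called, 2 were called with normexp correction, 2 with the filter on all 4 arrays and 2 with no filter, and leaving out 1 bone gave 0 to 6. Of the 7 probes called, 4 were with no filter, and leaving out 1 bone gave 0 to 12. The 5 members separated by size became 3 with normexp and 3 where a probe with an outlier spot was left out, which removes Nefm and Tubb3; leaving out 1 bone gave 5 to 7. L1cam changed sign to 0.091 with normexp, and leaving out 1 bone gave -0.83 to 0.63, with 0.63 without the mandible and 0.24 without the femur; the cause was not tested. Nefl missed the threshold with quantile normalization (adjusted p = 0.0587) and with no filter (0.0621), and Ncam1 with median centring (1.43, 0.0505), no filter (0.0616), the series table (1.43, 0.0518) and the mean of its probes (1.21, 0.0548). Tubb3 gave 3.18 to 3.48 over the alternatives in which it had a value, and among those it lost its call only without the ilium or the femur. Median centring moved the median of all genes to -0.28 and the series table did the same. Over all genes, 929 were called higher and 1494 lower, against 603 and 1647 with median centring, 597 and 1312 with quantile normalization, 574 and 1539 with the series table and 396 and 723 with no filter. Without the maxilla the counts were 2966 and 3200, and without the mandible 4045 and 4159. The counts at 4-fold between the maxilla and the mandible were 3 or 4, and between the ilium and the femur 0, under every setting run. Values near background, such as those of Nefl, Nefm and Gap43 in the ilium and femur, are limited by signal over background.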
